A study of Mus musculus with 11 samples.

Results

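Diabetic and euglycemic βRapKOGFP β-cells share one genotype and differ in insulin treatment and blood glucose, so their comparison addresses what glycemia and insulin add once Raptor is lost. The comparison used 8 of the 11 libraries of the series, 4 from mutant mice without insulin (diabetic) and 4 from mutant mice that had received insulin (euglycemic), chosen by their labels alone. The other 3 libraries came from WT mice. They entered the fit as a further group, and their levels are given beside the result where they bear on it.

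Both mutant groups lacked *Raptor* in β-cells because a rat insulin promoter drove Cre (RIP-Cre), and carried GFP at the *Rosa26* locus, which Cre switches on. WT littermates carried RIP-Cre and GFP as well, with intact *Raptor*. All mice were male, of a mixed C57BL/6 x 129SV background and 8 weeks old. The euglycemic mice had carried a subcutaneous insulin implant for the last 4 weeks, termed a pellet in the labels and an osmotic pump in the study's methods. Cells were sorted for GFP from dispersed islets. GFP marks each cell in which the insulin promoter had been active, also a cell that no longer makes insulin. The labels give neither the glucose level of the mice sequenced nor whether a library came from 1 mouse or several, so p values here measure the spread between libraries.

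Raptor is the defining subunit of mTORC1, the kinase complex that couples nutrients and insulin to ribosome production, protein synthesis, mitochondrial function and lipid synthesis. β-Cells sense glucose by burning it. Glucokinase and the respiratory chain turn glucose into ATP, ATP closes potassium channels, and the calcium that then enters releases insulin. Prolonged high glucose is known to load the endoplasmic reticulum with proinsulin, to induce stress genes and to lower the expression of mature β-cell genes, and insulin treatment relieves β-cells of part of that demand.

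*Rptor*, the gene that encodes Raptor (ENSMUSG00000025583, chromosome 11 of GRCm38 from 119602905 to 119899576), was first examined in each library. The level in FPKM, fragments scaled to transcript length and to the mapped fragments of the library, was 0.937, 0.831, 0.507 and 0.485 in diabetic replicates 1 to 4 and 0.423, 0.481, 0.623 and 0.438 in the euglycemic replicates, against 0.948, 1.36 and 1.79 in WT. The 2 mutant groups overlapped (two-sided exact permutation test on log2(FPKM + 1), p = 0.171), and all 8 mutant libraries lay below the lowest WT library. The mRNA that remained includes any exons outside the deleted part of the gene.

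The depth inferred from the deposited values was 9774207 to 13813129 fragments in diabetic and 9497786 to 16644019 in euglycemic libraries. Principal component 1 of the 8 mutant libraries, with 34.4% of the variance, parted euglycemic replicate 4 (score 63.6) from the other 7 (−27.2 to 18.1). Component 2, with 26.1%, ordered the libraries by group, with scores of −3.74 to 41.3 in the diabetic and −28.8 to −10.2 in the euglycemic group. Across the genes tested the median SD of log2(FPKM + 1) was 0.272 among diabetic and 0.309 among euglycemic libraries, and 0.200 among the euglycemic libraries without replicate 4. Markers of β-cells defined all libraries, with *Ins1*, *Ins2* and *Iapp* each at 22121 FPKM or more.

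Markers of other pancreatic cells varied between libraries. The summed FPKM of 20 endothelial markers was 15.0 to 76.3 in diabetic, 6.37 to 23.2 in euglycemic and 9.84 to 12.02 in WT libraries. For 18 mesenchymal and stellate markers it was 8.78 to 53.7 in diabetic and 3.31 to 7.67 in euglycemic libraries, which did not overlap, and 6.19 to 13.6 in WT. For 19 macrophage markers it was 80.7 to 228.3 in diabetic and 63.2 to 134.5 in euglycemic libraries, against 39.6 to 48.3 in WT. The 23 acinar markers, which include digestive enzymes at very high levels in exocrine tissue, summed to 25.8 to 4149 FPKM in diabetic and 20.9 to 7104 in euglycemic libraries. They were high in diabetic replicates 1 to 3 and in euglycemic replicates 1 and 4, so they split the libraries within the groups. None of the endothelial or mesenchymal markers was at 0 in all 4 diabetic libraries, and 9 of 20 and 6 of 18 were below 1 FPKM in all 4. In euglycemic libraries 17 of 20 and 17 of 18 were below 1 FPKM. In bulk RNA, fewer cells of a type and less RNA in each cannot be told apart.

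**Figure D1:**
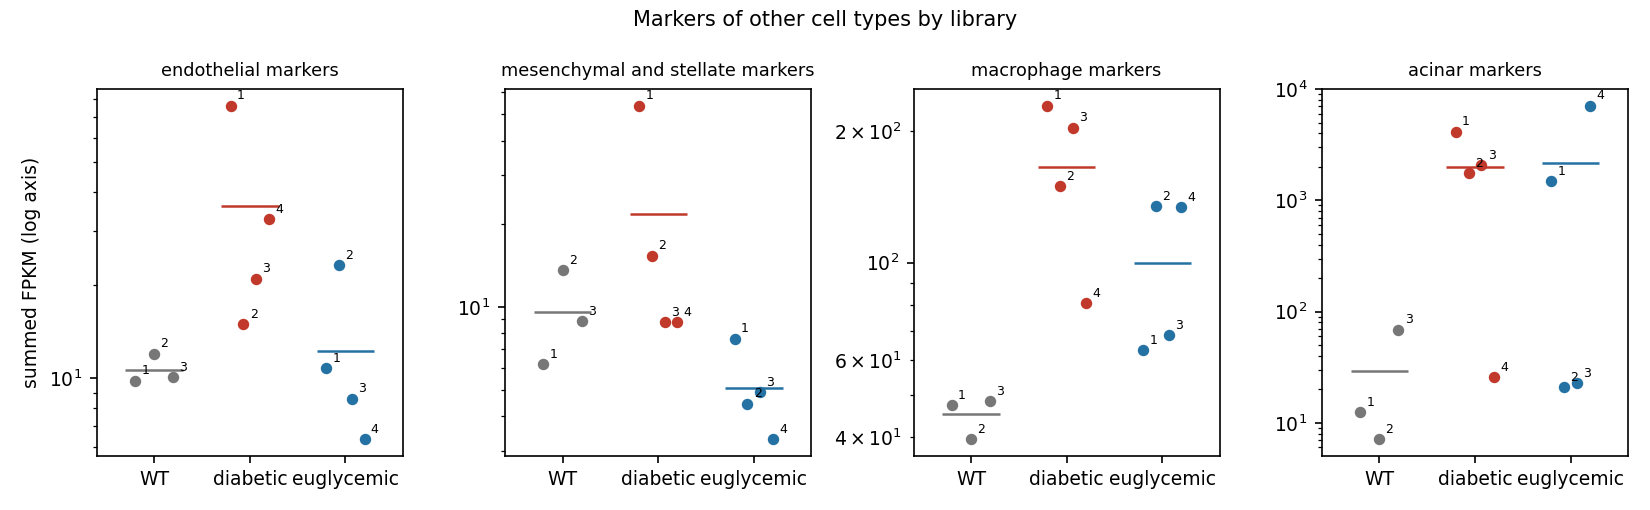
Summed FPKM (log axis) of the markers of 4 other cell types in each library of the WT, diabetic and euglycemic groups; points are libraries numbered by replicate and horizontal lines are group means. Diabetic replicate 1 has the highest endothelial and mesenchymal sums, and the acinar sum reaches 4149 in diabetic replicate 1 and 7104 in euglycemic replicate 4.

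One property of the transcripts ordered the whole comparison. The log2 difference, given throughout as diabetic minus euglycemic on the log2(FPKM + 1) scale, increased with the length of the gene's longest annotated transcript, with a Spearman rho of 0.53 across 11208 genes, which are not independent replicates. With GC content rho was −0.087. In the eighth of genes with the shortest transcripts, of up to 1257 bases, the median log2 difference was −0.36, and in the eighth with the longest, of 5766 bases or more, it was 0.31. The median level of the shortest eighth exceeded that of the longest by 0.57, 0.85, 1.05 and 1.25 (log2) in diabetic replicates 1 to 4 and by 1.61, 1.601, 1.57 and 1.52 in the euglycemic replicates, so the groups did not overlap. The WT libraries were split in the same way. WT replicate 1 had a value of 1.73, beyond that of each euglycemic library, whereas WT replicates 2 and 3 had 0.76 and 0.73, within the diabetic range. WT replicate 1 shared genotype, age and treatment with the other WT libraries. The deviation of WT replicate 1 from WT replicates 2 and 3 was correlated with the log2 difference between the mutant groups across genes (Pearson r = −0.56, no p value is given, since genes are not replicates). RNA integrity, fragment size and coverage along transcripts, which can change with transcript length between libraries, are not among the values used here, and their part in the results was not tested.

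**Figure D2:**
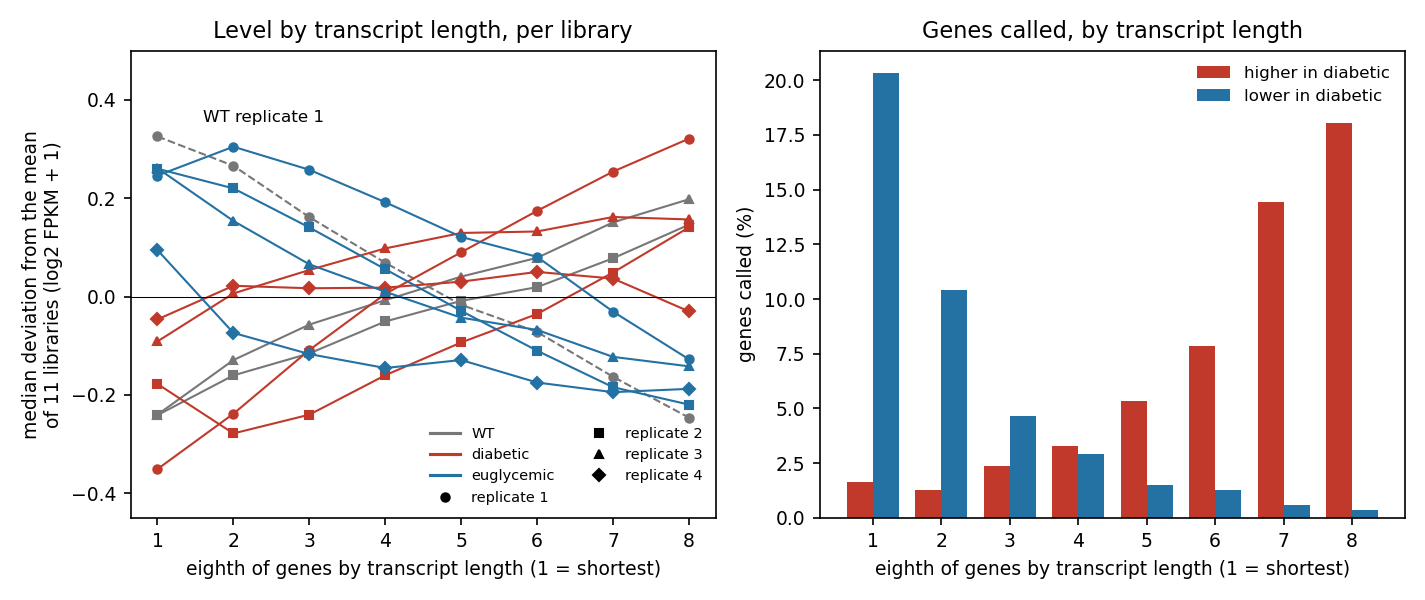
Left, median deviation of each library from the mean of the 11 libraries (log2(FPKM + 1)) in 8 bins of genes ordered by the length of the longest transcript; lines are libraries, coloured by group, and the dashed line is WT replicate 1. Right, bars give the percentage of genes in each bin called higher or lower in diabetic libraries. Short transcripts were called lower in 20.3% of genes and higher in 1.64%, and the longest were called lower in 0.357% and higher in 18.1%.

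Gene lists and many of the genes described at length are therefore also given after length-centring, in which a smooth dependence on transcript length was removed from every library before the fit. This step was chosen after the pattern was seen. It also removes any real difference that is shared by transcripts of one length. Of the 97 called genes named in the text, 53 stayed called. After it, rho with length was −0.012, and WT replicate 1 still deviated from the other WT libraries in genes that differed between the mutant groups (Pearson r = −0.44 across genes).

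Of 11251 genes tested with limma, 2317 had an unadjusted p of at most 0.05, and 1 gene, *Esm1*, passed an adjusted p of at most 0.05 and 1.5-fold. The study's methods set an FDR and a fold criterion of this size, while its account of the results names a p value without saying whether it was adjusted. This is 0.00889% of the genes tested. The count rested on the libraries in the fit, and was 378 without WT replicate 1, 4 without euglycemic replicate 4, and 1212 when libraries were weighted by their spread, where WT replicate 1 and euglycemic replicate 4 had the lowest weights (0.284 and 0.229). To describe gene groups, a gene was called higher or lower when its unadjusted p was at most 0.05 and its difference at least 1.5-fold. By this rule 763 genes were called higher in diabetic libraries (6.78%) and 592 lower (5.26%). Apart from *Esm1*, no called gene passed the adjusted threshold, so single calls and counts below are descriptions beside these background shares. Rescaling each library to TPM changed the balance to 1379 higher and 349 lower. The median log2 difference of all genes was then 0.12, against 0.0088 as deposited. After length-centring, 454 of 11208 genes were called higher (4.05%) and 275 lower (2.45%), 0 passed the adjusted threshold with limma (smallest adjusted p = 0.0787) against 1687 genes by the unadjusted p at 0.05, and 317 and 132 genes were called in the same direction both ways. Every diabetic library lay above every euglycemic library in 771 genes (6.85%) and below in 835 (7.42%).

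*Esm1* (ENSMUSG00000042379, chromosome 13 from 113209659 to 113218098) encodes endocan, a proteoglycan secreted by endothelial cells. Its FPKM was 4.17, 2.44, 2.76 and 1.84 in diabetic replicates 1 to 4 and 0, 0.353, 0.413 and 0 in the euglycemic replicates, with 0, 0.361 and 0 in WT. Diabetic libraries lay above all others. The fit took genes with 1 FPKM in 3 or more of the 11 libraries. For *Esm1* only diabetic libraries reached that level, so it entered the test through the group in which it was high. *Esm1* rose by 1.66 on the log2 scale (SE 0.22, adjusted p = 0.0498 with limma), and the length-centred difference was 1.83 (adjusted p = 0.0787). The adjusted call was lost in 17 of the 26 alternative analyses in which *Esm1* was tested.

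To choose single genes, those with an unadjusted p of at most 0.01 and no overlap between the groups were taken, 356 higher and 290 lower, and the 12 with the largest differences in each direction are given here. *Esm1* was among them, and so was a second endothelial gene. *Plvap* (ENSMUSG00000034845, chromosome 8 from 71497765 to 71511752) encodes the diaphragm protein of fenestrated capillaries, the kind found in islets. It was at 39.9, 6.14, 6.35 and 14.0 FPKM in diabetic libraries and at 0.417, 1.57, 1.82 and 0 in euglycemic libraries, with up to 1.38 in WT (log2 difference 2.90, SE 0.52, adjusted p = 0.0868). *Esm1* and *Plvap* were the 2 called among the 4 endothelial markers tested. Another 16 markers were below the minimum of the fit, which *Esm1* reached only in diabetic libraries. The share of 2 in 4 is therefore not comparable with that of all genes. *Pecam1* and *Eng*, which mark endothelium in general, were too low for the fit. *Pecam1* was at 1.35, 0.285, 0.266 and 0.251 FPKM in diabetic libraries and at most 0.193 in euglycemic libraries, and *Eng* at 0.788, 0.392, 0.257 and 0.231 against at most 0.0276. For both genes the groups did not overlap, and the exact permutation test gave p = 0.0286, the smallest that 4 libraries against 4 allow. The summed level of the 20 endothelial markers, in contrast, overlapped between the groups. Whether the cells that carry these mRNAs are GFP-labelled cells or endothelial cells in the sort was not tested.

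Genes for matrix proteins and for a collagen chaperone were also among the 12 higher genes, a grouping made after these genes were selected. *Thbs1*, which encodes the matrix protein thrombospondin, was at 15.8, 1.54, 1.26 and 1.06 FPKM in diabetic and at most 0.256 in euglycemic libraries (log2 difference 1.73). *Sparc*, a collagen-binding matrix protein, was at 11.5, 2.15, 1.34 and 1.601 against at most 0.572 (1.53). *Serpinh1*, the collagen chaperone of the endoplasmic reticulum, was at 4.34 to 11.2 against 0.443 to 4.15 FPKM (1.53). Diabetic replicate 1 held the highest value of all 3 genes, as it did of the endothelial and mesenchymal marker sums. Without diabetic replicate 1 the 3 differences were 1.01, 0.97 and 1.35. *Thbs1* and *Sparc* reached 1 FPKM, the minimum of the filter, in every diabetic library and in no euglycemic library.

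Further genes of this set had other known roles. *Pappa2*, a protease that cleaves insulin-like growth factor binding proteins, was at 40.8, 14.8, 12.5 and 9.67 FPKM in diabetic and 3.87, 8.15, 5.80 and 2.49 in euglycemic libraries (log2 difference 1.62, unadjusted p = 0.0034). *Sorcs2*, a sorting receptor of the VPS10 family, was at 2.43 to 4.48 against 0.0202 to 1.62 FPKM (1.47) and at no more than 0.2997 in WT. *Sncb*, which encodes β-synuclein, was at 6.87 to 10.4 against 1.34 to 4.44 FPKM (1.47). The uncharacterized *4732496C06Rik* was at 2.41 to 6.76 against 0 to 1.13 FPKM (1.68).

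*Zfp36l2* encodes a protein that binds AU-rich elements and promotes decay of the mRNAs that carry them. Its FPKM was 11.7, 12.5, 13.5 and 12.04 in diabetic and 4.03, 3.57, 3.96 and 2.98 in euglycemic libraries, a difference of 1.54 (SE 0.27, adjusted p = 0.0846) with little spread in either group. In WT it was 4.06 in replicate 1 and 12.6 and 11.8 in replicates 2 and 3, so the WT libraries fell into the same 2 levels as the mutant groups. After length-centring the difference was 1.46.

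Of these 24 genes the one with the most positive log2 difference, *Gm20634* (3.68), and the one with the most negative, *Gm20633* (−2.74), lie on opposite strands of one histone gene locus on chromosome 3, from 96245554 to 96248509 and from 96243550 to 96246380. *Gm20634* was at 10.4 to 20.4 FPKM in diabetic and 0.0660 to 0.577 in euglycemic libraries. *Gm20633* was at 0.108 to 2.59 in diabetic libraries and at 4.37, 2.64, 39.7 and 50.2 in the euglycemic replicates. Both are uncertain. Whether reads were assigned by strand is not given in the sources used here, 79.6% of the exon bases of *Gm20634* overlap histone genes on the same strand, and 31.2% of those of *Gm20633* overlap genes on the other strand. *Pabpc1l2a-ps*, also among the largest differences (1.45), shares all of its 50-base stretches with a second pseudogene.

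Among the 12 lower genes, *Cebpd* had the largest difference outside that locus. It encodes C/EBPδ, a transcription factor of the acute-phase and stress response (ENSMUSG00000071637, chromosome 16 from 15887286 to 15891031). Its FPKM was 14.9, 52.6, 29.9 and 21.3 in diabetic and 156.8, 70.1, 91.8 and 182.4 in euglycemic libraries, with 68.7, 90.2 and 80.3 in WT. All diabetic libraries lay below all others, and the 3 WT libraries lay near the 2 lower euglycemic libraries. The log2 difference was −2.09 (SE 0.37, adjusted p = 0.0846) and −2.19 after length-centring. *Cebpd* was the only one of 5 C/EBP family genes tested that was called. Of its exon bases, 15.0% overlap *Spidr* on the other strand.

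*Car15* encodes a membrane-anchored carbonic anhydrase. It was at 30.8, 19.9, 16.2 and 10.5 FPKM in diabetic and 79.6, 63.4, 92.5 and 38.6 in euglycemic libraries, with 67.2 to 91.5 in WT (log2 difference −1.80, adjusted p = 0.0846). Of its exon bases 65.7% overlap *Gm20518* on the same strand, so its counts could be split between the 2 genes. *Gpx2*, a glutathione peroxidase that detoxifies hydroperoxides, was at 34.1, 23.2, 45.6 and 35.4 FPKM in diabetic and 122.6, 68.2, 59.7 and 82.1 in euglycemic libraries, with 29.4 to 47.0 in WT (−1.23, and −1.26 after length-centring). Here the WT libraries lay at the diabetic level. Its processed pseudogene *Gpx2-ps1* (−1.25) shares 36.8% of its 50-base stretches with other genes, most often *Gpx2*, and may hold reads of *Gpx2*.

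Of the rest of the 12, *Psmb10* is described with the proteasome. *Ift43*, a subunit of the transport machinery of cilia, was at 2.24 to 6.65 FPKM in diabetic and 7.30 to 18.9 in euglycemic libraries (−1.34). *Tbx1*, a developmental T-box factor, was at 0 to 2.44 against 2.77 to 7.93 FPKM (−1.41). *Dctpp1*, an enzyme that removes modified dCTP, was at 4.95 to 7.38 against 11.7 to 18.8 FPKM (−1.14). *Gm20463*, *Gm27252* and *Mdrl* had mean levels of 1.75, 2.61 and 1.80 FPKM in euglycemic libraries. All exon bases of *Gm20463* and *Mdrl* overlap another gene on the other strand.

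**Figure D3:**
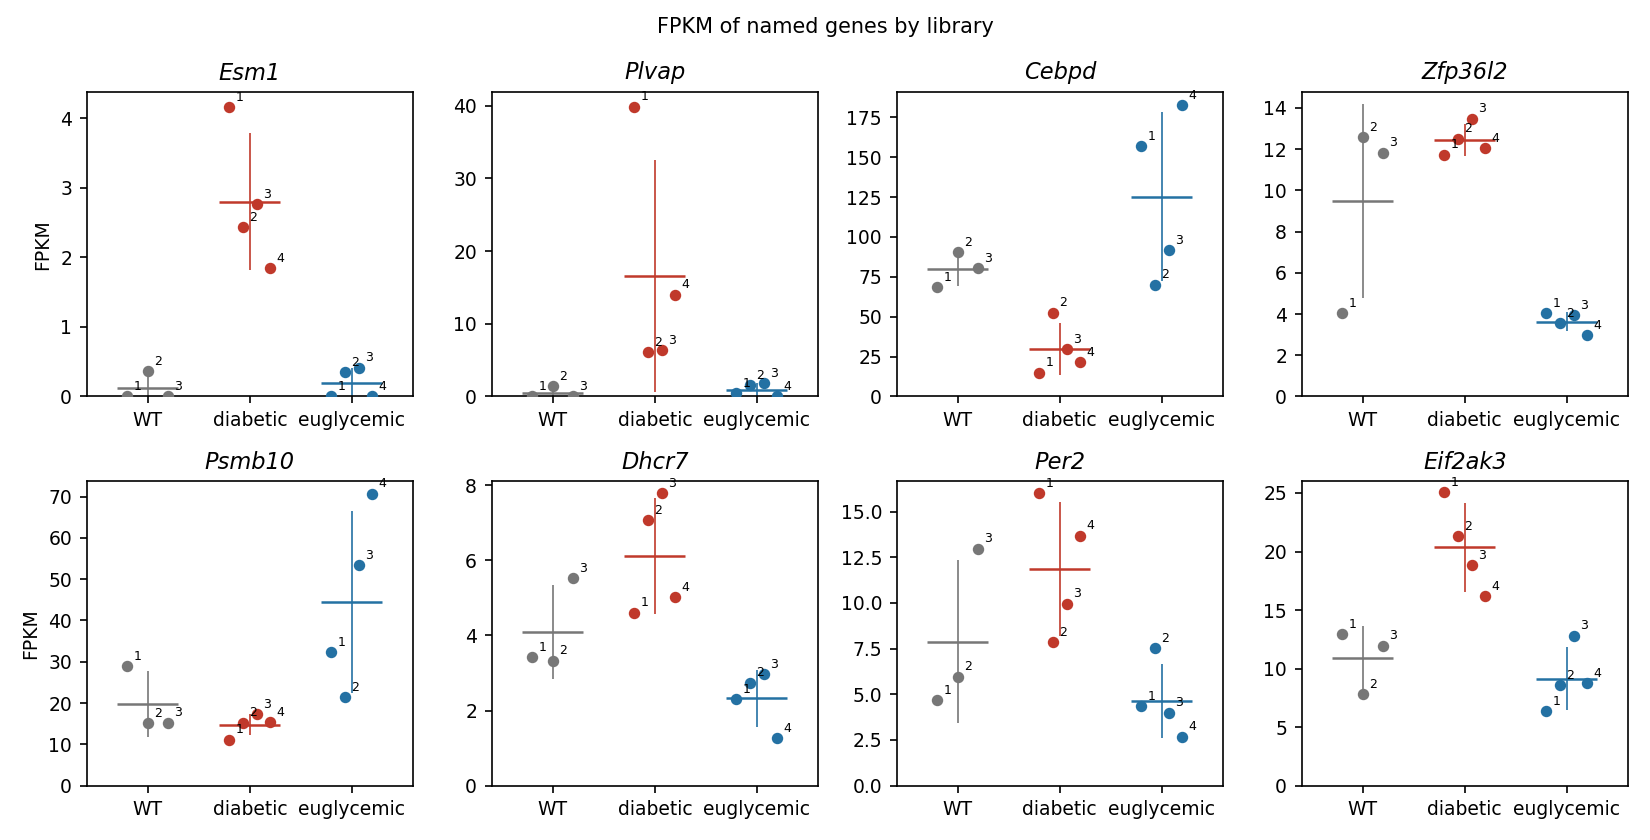
FPKM of 8 named genes in each library; points are libraries numbered by replicate, horizontal lines are group means and vertical lines are ± 1 SD. *Esm1* and *Plvap* are high in all 4 diabetic libraries, *Cebpd* is low in them, and *Zfp36l2* is near 12 FPKM in the diabetic libraries and WT replicates 2 and 3 and near 4 FPKM in the euglycemic libraries and WT replicate 1.

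Among lists with at least 10 members tested, the genes of oxidative phosphorylation had the highest share of called members. The nuclear genes were taken by the symbol prefixes of subunits of the respiratory chain and ATP synthase. Of the 76 tested, 75 had a negative log2 difference and 47 were called lower in diabetic libraries (61.8%, against 5.26% of all genes). Not all of them encode subunits, and a pseudogene of an ATP synthase gene was among the 47. None was called higher. The median log2 difference was −0.68 for complex I (26 of 36 called lower) and −0.62 for complexes III, IV and V (21 of 40). These genes have short transcripts, with medians of 1025.5 and 929.5 bases, and 46 of the 76 fall in the shortest eighth. That eighth held 1266 genes outside the respiratory chain, ribosomal, mitochondrial genome and proteasome lists. Of these 18.2% were called lower, with a median of −0.33.

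The proton-pumping NADH dehydrogenase, complex I, takes electrons from NADH into the chain. *Ndufv2*, a subunit of its NADH-binding module, was at 37.4, 40.6, 44.1 and 43.2 FPKM in diabetic and 84.7, 66.5, 69.4 and 73.5 in euglycemic libraries (log2 difference −0.81, unadjusted p = 0.0011). *Ndufs4* was at 25.5 to 31.8 against 48.0 to 53.0 FPKM (−0.76), and *Ndufa7* and the membrane-arm subunit *Ndufb10* differed by −0.73 and −0.87. For these 4 genes all diabetic libraries lay below all euglycemic libraries. After length-centring the 4 differences were −0.57, −0.52, −0.36 and −0.51, and none was called. In WT, replicate 1 was at the euglycemic level, for example 75.1 FPKM for *Ndufv2* and 54.8 for *Ndufs4*, and replicates 2 and 3 were near the diabetic level, with 44.9 and 42.4, and 32.4 and 30.0.

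Complexes III and IV pass electrons to oxygen, and complex V makes ATP. *Uqcrc1*, a core protein of complex III, was at 31.3, 33.3, 24.6 and 26.6 FPKM in diabetic and 64.0, 52.3, 48.2 and 42.0 in euglycemic libraries (−0.81, unadjusted p = 0.00081). *Cox5a* and *Cox4i1*, subunits of cytochrome *c* oxidase, differed by −0.85 and −0.70, and *Atp5g3*, which encodes the rotor ring subunit of ATP synthase, by −0.71. In each of these genes the groups did not overlap. After length-centring *Uqcrc1* (−0.71) and *Cox5a* (−0.63) were still called, and *Cox4i1* (−0.33) and *Atp5g3* (−0.35) were not.

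Length-centring reduced the medians to −0.37 for complex I and −0.32 for complexes III, IV and V, and the calls to 6 of 76, while 74 of the 76 differences remained negative. The mean log2(FPKM + 1) over the 76 genes was 4.70 to 5.07 in diabetic and 5.46 to 5.62 in euglycemic libraries. In WT it was 5.69 in replicate 1 and 4.98 and 4.89 in replicates 2 and 3, so the spread among WT libraries was as large as the difference between the mutant groups. After length-centring the range was 4.94 to 5.24 in diabetic and 5.34 to 5.46 in euglycemic libraries, and the WT values were 5.45, 5.16 and 5.05.

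The 13 mRNAs encoded by the mitochondrial genome, which is transcribed by its own polymerase, had another order of groups. Their median log2 difference was −0.58, 12 of 13 were negative, and 5 were called lower (*mt-Nd2*, *mt-Nd6*, *mt-Co2*, *mt-Co3* and *mt-Atp6*). Their mean log2(FPKM + 1) was 8.14, 8.37, 8.40 and 8.43 in diabetic and 8.75, 8.83, 9.11 and 8.69 in euglycemic libraries, and 9.40, 9.08 and 8.84 in WT. All 3 WT libraries lay above all diabetic libraries here, unlike for the nuclear subunits. *mt-Nd2*, a complex I subunit, was at 130.4, 198.1, 174.0 and 192.2 FPKM in diabetic and 256.6, 283.1, 290.0 and 309.1 in euglycemic libraries, with 272.1 to 386.5 in WT (−0.73, unadjusted p = 0.0024). *mt-Cytb* was at 851.5 to 1250 against 1281 to 1877 FPKM (−0.58). After length-centring the median was −0.22 and no gene was called, with −0.38 for *mt-Nd2*. Of the 50-base stretches of *mt-Co2* 100% occur in other annotated genes, most often *Gm28661*, and of those of *mt-Nd2* 8.19%.

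**Figure D4:**
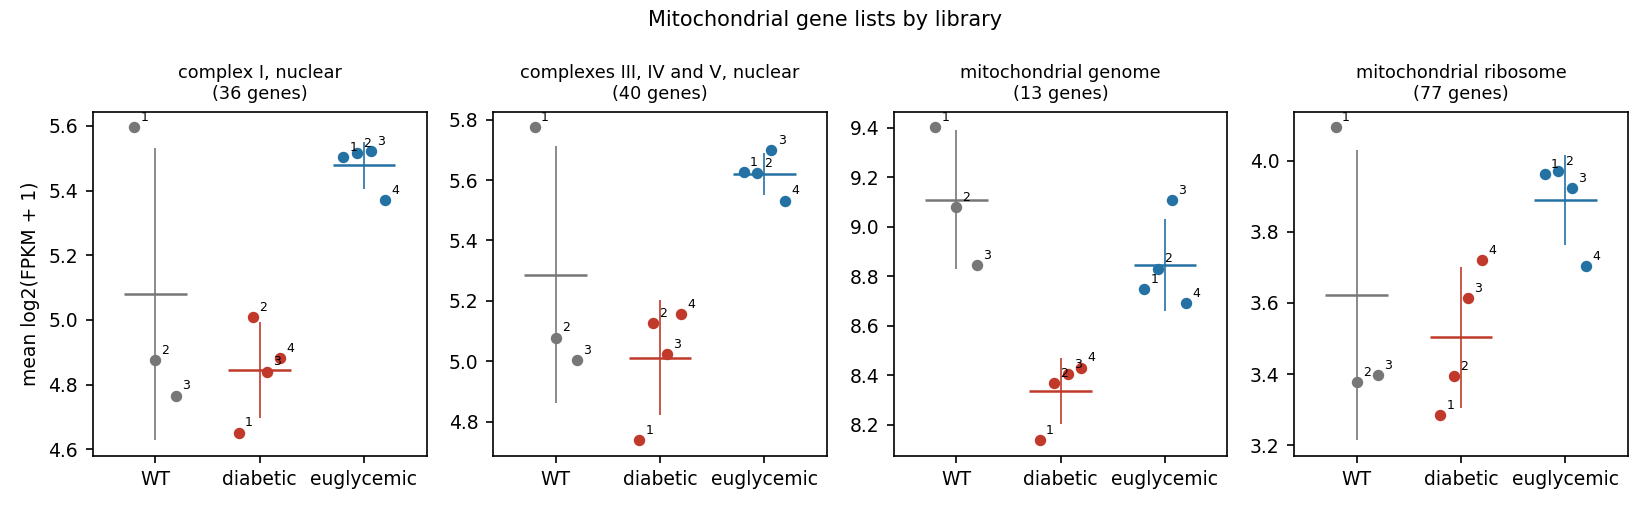
Mean log2(FPKM + 1) of 4 gene lists in each library; points are libraries numbered by replicate, horizontal lines are group means and vertical lines are ± 1 SD over libraries. For the nuclear lists WT replicate 1 lies above the euglycemic libraries and WT replicates 2 and 3 lie among the diabetic libraries, whereas for the mitochondrial genome all 3 WT libraries lie above the diabetic libraries.

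Mitochondrial ribosomal proteins, which translate those mRNAs, had a median log2 difference of −0.42, with 18 of 77 called lower and 0 higher. *Mrpl39* was at 6.86 to 10.6 FPKM in diabetic and 13.5 to 15.8 in euglycemic libraries (−0.73), *Mrpl41* differed by −0.80 and *Mrpl40* by −0.72 (−0.44 and −0.40 after length-centring, not called). After length-centring this list had 12 lower calls, 7 of them among the 18, and 1 higher call, with a median of −0.25. Cytosolic ribosomal proteins, whose mRNAs are classic translational targets of mTORC1, had a median of −0.41. Of these 77 genes 76 were negative but 6 were called lower (7.79%), *Rpl22l1* (−0.72) among them. After length-centring their median was −0.12, none was called lower and 1 was called higher. TCA cycle genes had a median of −0.19 (1 of 33 called lower, 3.03%) and glycolysis genes of −0.21 (1 of 18, 5.56%), against 5.26% of all genes. After length-centring these medians were −0.07 and −0.11, with 0 calls in both lists.

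Proteasome subunits had a median of −0.42, with 7 of 37 called lower. *Psmc5*, an ATPase of the regulatory particle, was at 62.0 to 73.3 FPKM in diabetic and 86.7 to 121.1 in euglycemic libraries (−0.66), and *Psmb3* differed by −0.65 (both −0.37 after length-centring). Also called were *Psmb10* (−1.41) and *Psmb8* (−0.90), which replace constitutive subunits in the immunoproteasome that interferon induces, and these were the 2 genes of the list called after length-centring.

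*Psmb10* (ENSMUSG00000031897, chromosome 8 from 105935735 to 105938444) was at 11.1, 15.3, 17.3 and 15.4 FPKM in diabetic and at 32.3, 21.5, 53.4 and 70.7 in euglycemic libraries, with 15.1 to 29.0 in WT. It belongs to the list of interferon response and antigen presentation genes, of which 6 of 27 were called lower (*B2m*, *Tap2*, *Psmb8*, *Psmb10*, *Bst2* and *Xaf1*) and 0 higher, with 25 of 27 negative and a median of −0.55. On leaving out 1 library the median ranged from −0.87 without euglycemic replicate 1 to −0.29 without euglycemic replicate 3. Length-centring left the median at −0.59 with 3 calls (*Tap2*, *Psmb8* and *Psmb10*). The mean log2(FPKM + 1) of the list was 4.72 and 3.85 in euglycemic replicates 3 and 4 and 2.70 and 2.67 in euglycemic replicates 1 and 2, against 2.62 to 3.13 in diabetic libraries. The list was thus high in 2 of the 4 euglycemic libraries. *Bst2*, which tethers budding virus particles to the cell surface, shows this, with 8.41, 5.55, 32.4 and 24.4 FPKM in the euglycemic and 3.12 to 8.64 in the diabetic replicates. *Tap2*, a subunit of the peptide transporter for MHC class I, differed by −0.84, and by −0.55 without diabetic replicate 4, where it was not called. The call of *Xaf1* was lost in 20 of 25 alternative analyses.

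Antioxidant genes and targets of NRF2 had a median of −0.42, with 5 of 30 called lower and 1 higher. *Txn1* (thioredoxin) was at 36.7 to 52.5 FPKM in diabetic and 68.2 to 78.8 in euglycemic libraries (−0.72). The mitochondrial peroxiredoxin *Prdx3* differed by −0.65, the quinone reductase *Nqo1* by −0.59 and glutaredoxin *Glrx* by −0.64. After length-centring the median was −0.17 and 2 were called lower, with *Glrx* at −0.80, whereas *Txn1* (−0.38), *Prdx3* (−0.37) and *Nqo1* (−0.33) were no longer called. Lysosomal and V-ATPase genes had 5 of 35 called lower (median −0.23, and −0.36 without euglycemic replicate 4) and 3 after length-centring. *Ctsl*, the lysosomal protease cathepsin L, was at 109.9, 103.6, 100.5 and 87.5 FPKM in diabetic and 197.7, 216.3, 218.2 and 126.3 in euglycemic libraries (−0.88, and −1.19 after length-centring), and the membrane protein *Cd63* differed by −0.75. Of the exon bases of *Ctsl* 26.8% overlap *Gm47123* on the other strand.

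In the higher direction, genes of cholesterol and fatty acid synthesis, which SREBP factors activate when sterols are low or insulin is high, had positive log2 differences in most members. Of 30 genes tested 7 were called higher (*Hmgcs1*, *Idi1*, *Dhcr7*, *Fasn* and *Scd2* among them) and 0 lower, with a median of 0.36 that was 0.155 without euglycemic replicate 4. *Dhcr7*, which makes the last reduction of the cholesterol pathway, was at 4.61, 7.06, 7.78 and 5.03 FPKM in diabetic and 2.30, 2.75, 2.98 and 1.27 in euglycemic libraries (log2 difference 1.11, SE 0.23, unadjusted p = 0.000395), with 3.33 to 5.52 in WT. The groups did not overlap in *Dhcr7*. *Scd2*, a desaturase that makes monounsaturated fatty acids, was at 14.2, 17.2, 16.0 and 21.0 FPKM in diabetic and 9.56, 8.05, 13.4 and 10.6 in euglycemic libraries (log2 difference 0.67), again without overlap, and at 34.1 to 54.6 in WT. After length-centring the median was 0.18 with 3 calls (*Hmgcs1*, *Idi1* and *Dhcr7*), *Dhcr7* differed by 1.13, and *Scd2* was at 0.40 and not called. Without euglycemic replicate 4, *Hmgcs1* (0.66) and *Idi1* (0.51) were not called. Euglycemic replicate 4 had the lowest mean of the list (2.90, against 3.21 to 3.67 in the other euglycemic and 3.43 to 3.77 in diabetic libraries).

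Clock genes had a median of 0.37 (0.25 without diabetic replicate 1), with 2 of 17 called higher. *Per2*, a repressor of the clock, was at 16.0, 7.84, 9.97 and 13.7 FPKM in diabetic and 4.34, 7.51, 4.00 and 2.69 in euglycemic libraries (1.21, unadjusted p = 0.0023, and 0.92 after length-centring). *Nr1d2*, a repressor that responds to heme, was at 16.2 to 31.7 against 8.19 to 18.9 FPKM (0.99). *Nr1d1* was at 21.8 to 120.3 against 11.7 to 53.1 FPKM (1.06, unadjusted p = 0.062), and *Clock* differed by 0.56. After length-centring the median of the list was 0.25, *Nr1d1* was called as well (1.11) and *Clock* was at 0.25. The hour at which each mouse was killed is not in the labels, and these genes follow the hour of the day.

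Genes of the endoplasmic reticulum and the unfolded protein response included calls in both directions. Of 34 tested, 4 were called higher (*Dnajb9*, *Ern1*, *Eif2ak3* and *Ppp1r15b*) and 2 lower (*Sdf2l1* and *Sec61b*), with a median of 0.08 that was −0.028 without euglycemic replicate 4. *Eif2ak3* encodes PERK, the kinase that slows translation when unfolded proteins accumulate (ENSMUSG00000031668, chromosome 6 from 70844515 to 70905245). It was at 25.1, 21.3, 18.8 and 16.2 FPKM in diabetic and 6.39, 8.59, 12.8 and 8.77 in euglycemic libraries, with 7.81 to 12.9 in WT (1.09, SE 0.23, unadjusted p = 0.000335), so the euglycemic and WT ranges overlapped and the diabetic libraries lay above both. *Dnajb9*, a cochaperone of BiP, was at 308.1 to 365.8 FPKM in diabetic libraries and 169.2, 179.2, 184.7 and 298.0 in euglycemic libraries, with 111.1 to 154.1 in WT (0.71). *Ppp1r15b*, which restores translation after PERK has acted, differed by 1.10. *Eif2ak3*, *Dnajb9* and *Ppp1r15b* were called after length-centring as well, at 0.89, 0.80 and 0.82. *Sec61b*, a subunit of the channel that admits new proteins to the endoplasmic reticulum, had a short transcript and differed by −0.80, and by −0.43 after length-centring. The share called lower (5.88%) was close to that of all genes (5.26%), and after length-centring 3 genes of the list were called higher and 0 lower.

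Among 66 genes with symbols of translation initiation and elongation factors 4 were called higher (6.06%) and 2 lower (3.03%), with a median of −0.18. The list was taken by symbol prefix and includes genes that are not such factors. The 2 lower genes were a methyltransferase gene and a pseudogene, and *Eif2ak3*, described above, was 1 of the 4 higher genes. *Eif4g2*, a scaffold for translation without the cap-binding factor, was at 90.3, 72.1, 88.1 and 73.2 FPKM in diabetic and 42.1, 31.7, 31.7 and 48.5 in euglycemic libraries (1.07, and 0.75 after length-centring). In WT *Eif4g2* was at 30.4 in replicate 1 and 67.1 and 65.7 in the other replicates, the split seen for *Zfp36l2*. *Eif4g3* differed by 0.62, and by 0.30 after length-centring, where it was not called. The median of the list was then −0.10, with 2 genes called higher and 2 others, not among those called before, lower.

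Genes of insulin signalling, with long transcripts (median 6848 bases), had 4 of 21 called higher and 0 lower. Their median of 0.18 was 0.051 to 0.39 when 1 library was left out, the lowest without diabetic replicate 1 and the highest without diabetic replicate 2. *Pik3ca*, a catalytic subunit of PI 3-kinase, was at 1.88 to 2.26 FPKM in diabetic and 0.140 to 1.40 in euglycemic libraries (0.71), and *Pdpk1* (0.61) and *Igf1r* (0.62) were also called. None of the 4 was called after length-centring, where the median was 0.06. Of 30 autophagy genes 2 were called higher (6.67%, near the 6.78% of all genes). They were *Ulk1* (0.78), the kinase that mTORC1 inhibits to hold autophagy in check, and *Atg2a* (0.81). *Atg2b* differed by 0.56. After length-centring neither *Ulk1* nor *Atg2a* was called, at 0.53 and 0.50, and 1 other gene of the list was called lower. The 7 mTOR complex genes tested had a median of 0.03 (−0.060 to 0.11 on leaving out 1 library) with 0 calls.

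Stress and immediate early genes depended on the library. Of 31 immediate early genes 3 were called higher, *Fosl2*, *Dusp5* and *Maff* (9.68%, against 6.78% of all genes), and 0 lower. The median of 0.29 was −0.015 without euglycemic replicate 4 and 0.051 without diabetic replicate 1. *Dusp5*, a nuclear phosphatase of ERK, was at 100.6 to 129.5 FPKM in diabetic and 40.2 to 92.0 in euglycemic libraries (0.97). *Maff*, a small Maf factor, differed by 1.13, and by 0.64 without euglycemic replicate 1, where it was not called. After length-centring the median was 0.28 with 4 higher calls, and *Fosl2* (0.35) was not among them. *Fos*, which dispersing tissue for a sort is known to induce, was at 323.2, 91.1, 339.4 and 122.0 FPKM in diabetic and 2073, 601.9, 76.5 and 55.7 in euglycemic libraries (−0.53, unadjusted p = 0.59 with limma), and *Dusp1* at 39.2 to 79.5 against 25.4 to 354.6 (−0.44, unadjusted p = 0.50 with limma). *Tnfaip3*, a brake on NF-κB, was at 6.26, 2.81, 4.21 and 3.90 against 1.88, 1.09, 1.57 and 0.550 FPKM (1.22, unadjusted p = 0.00026), and the interleukin-1 receptor *Il1r1* differed by 0.79. They were the 2 of 16 inflammatory genes called, and *Il1r1* (0.50) was not called after length-centring. In the Bcl2 family the pore-former *Bax* was at 33.6 to 65.6 FPKM in diabetic and 79.8 to 91.2 in euglycemic libraries (−0.82), whereas *Bbc3*, which encodes the activator PUMA, was at 12.9 to 18.0 against 8.01 to 11.9 (0.63, and 0.85 after length-centring). After length-centring *Bax* was at −0.48 and no longer called.

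**Figure D5:**
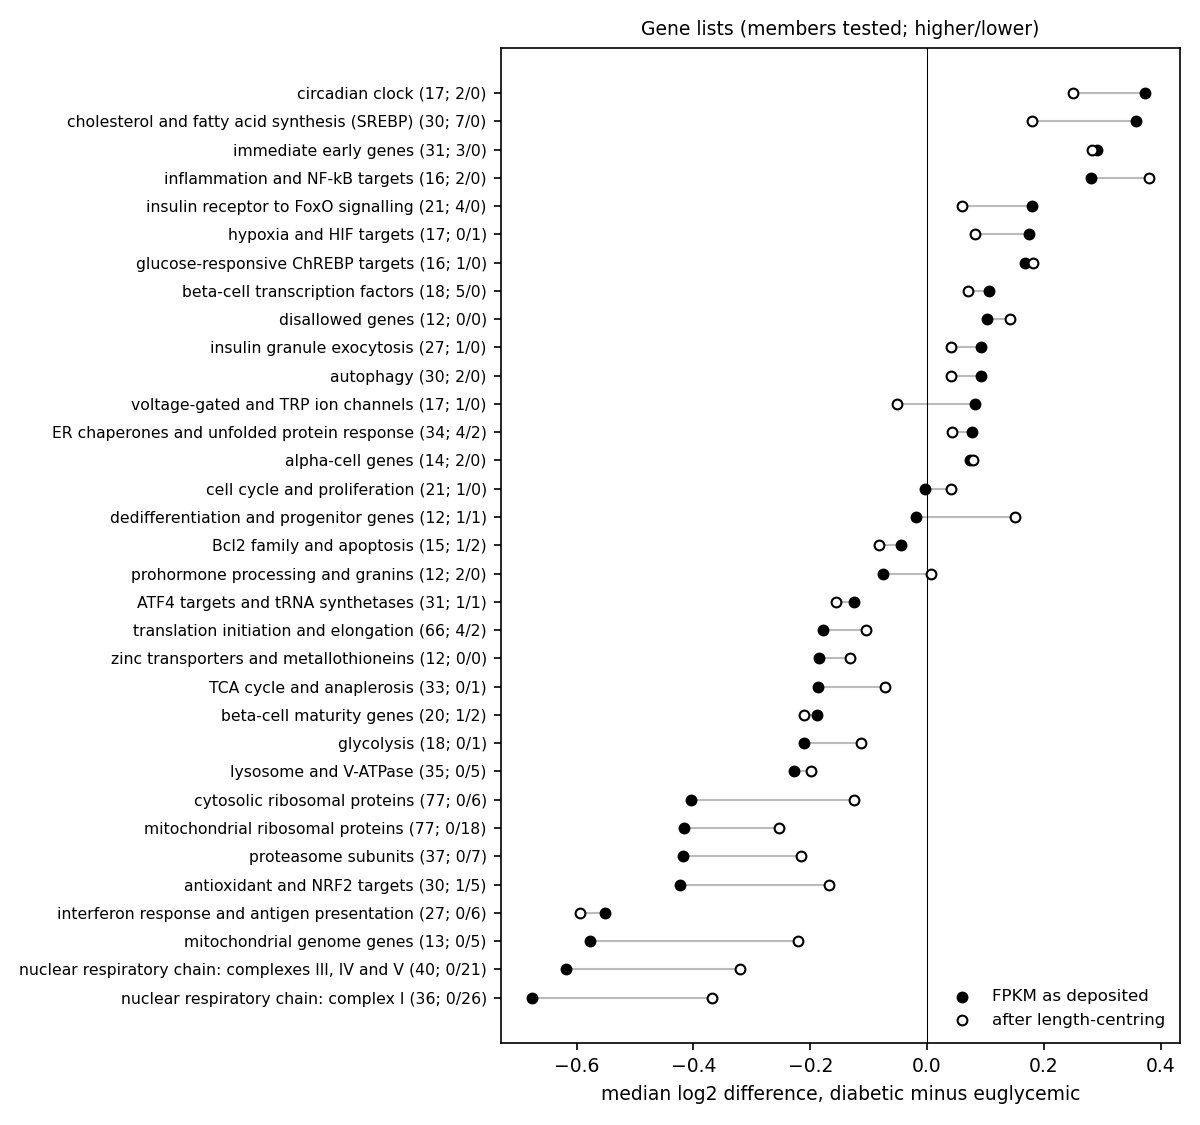
Median log2 difference (diabetic minus euglycemic) of each gene list with at least 10 members tested, as deposited (filled) and after length-centring (open); each label gives the members tested and, after the semicolon, those called higher and lower. Lists of markers of other cell types are not shown, among them the acinar markers (21 tested, median 1.25). Lists of short transcripts, such as the respiratory chain (−0.68 and −0.62), move toward 0 on centring, whereas the interferon list goes from −0.55 to −0.59.

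Neither insulin gene was called. *Ins1* was at 53562 to 85195 FPKM in diabetic and 47726 to 76615 in euglycemic libraries (0.14, unadjusted p = 0.64 with limma), and *Ins2* at 40001 to 80670 against 22121 to 78674 (0.54, unadjusted p = 0.20 with limma). The groups overlapped in both. *Ins2* was called higher without euglycemic replicate 4 (0.91), which had the highest *Ins2* level of its group, and with library weights (0.77). After length-centring the differences were 0.49 for *Ins1* (unadjusted p = 0.13 with limma) and 0.90 for *Ins2* (unadjusted p = 0.064 with limma), and without euglycemic replicate 4 as well they were 0.69 and 1.32, both called. *Iapp*, which encodes amylin, was at 31671 to 42051 against 45738 to 53380 FPKM, without overlap (−0.41, unadjusted p = 0.15 with limma), and its difference after length-centring was −0.04. The β-cell transcription factor *Pdx1* differed by −0.22 (unadjusted p = 0.36 with limma). Of 18 β-cell transcription factors 5 were called higher (*Nkx2-2*, *Mafa*, *Hnf4a*, *Insm1* and *Glis3*) and 0 lower, with a median of 0.11 (−0.0047 without euglycemic replicate 2), and 3 of the 5 were called after length-centring, but not *Hnf4a* (0.46) and *Glis3* (0.50). *Mafa*, which drives insulin transcription in mature β-cells, was at 24.9, 45.3, 37.7 and 37.6 FPKM in diabetic and 16.7, 8.29, 15.3 and 27.1 in euglycemic libraries (1.14, unadjusted p = 0.025), with an overlap between the groups, and at 11.9, 53.5 and 62.2 in WT. *Insm1*, a zinc-finger repressor of endocrine development, was at 65.0 to 88.6 against 18.8 to 65.2 FPKM (1.09), and *St18* at 9.24 to 11.9 against 5.51 to 8.00 (0.56, and 0.26 after length-centring).

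Genes of mature β-cell function had a median of −0.19 (−0.29 without euglycemic replicate 4 and −0.091 without euglycemic replicate 1), with 2 of 20 called lower (*Ppp1r1a* and *Ffar1*) and 1 higher (*Glp1r*). *Ffar1*, the fatty acid receptor that amplifies insulin secretion, was at 6.01, 4.97, 6.91 and 5.38 FPKM in diabetic and 11.8, 13.0, 7.65 and 6.53 in euglycemic libraries, with 10.2 to 12.7 in WT (−0.62, unadjusted p = 0.013, and −0.78 after length-centring). *Ppp1r1a*, an inhibitor of protein phosphatase 1, was at 129.7 to 232.4 against 234.8 to 384.3 FPKM (−0.66), and *Glp1r*, the incretin receptor, at 54.6 to 83.1 against 37.7 to 53.0 (0.61). After length-centring *Ppp1r1a* (−0.36) and *Glp1r* (0.32) were not called, and *Ffar1* was 1 of the 2 genes called lower, with 0 higher. The zinc transporter *Slc30a8* (−0.47, unadjusted p = 0.038 with limma) reached p but not 1.5-fold, and the glucose transporter gene *Slc2a2* differed by −0.27 (unadjusted p = 0.27 with limma) and, after length-centring, by −0.55 (unadjusted p = 0.023 with limma), and the groups overlapped in FPKM. *Ucn3*, a marker of mature β-cells, differed by −0.64 (unadjusted p = 0.11 with limma), and by −0.36 after length-centring. In prohormone processing, *Vgf* (0.71) and the carboxypeptidase *Cpd* (1.08) were the 2 of 12 called.

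Of 9 non-β hormones tested 0 were called. *Gcg* was at 9077, 4571, 3432 and 14073 FPKM in diabetic and 4093, 7786, 22921 and 10225 in euglycemic libraries (−0.47, unadjusted p = 0.41), and *Sst* at 4868 to 12069 against 4774 to 13782 (−0.55, unadjusted p = 0.19 with limma). After length-centring these were −0.13 and −0.18. *Aldh1a3*, a marker of dedifferentiated β-cells, was at 43.2, 14.4, 44.96 and 28.2 FPKM in diabetic and 12.1, 50.9, 5.61 and 3.66 in euglycemic libraries (1.36, unadjusted p = 0.041), and the highest value of all was in euglycemic replicate 2. This call was lost in 15 of 27 alternative analyses, with a difference of 0.91 without euglycemic replicate 4 and 2.07 without euglycemic replicate 2. *Txnip*, which glucose induces through ChREBP, was at 72.9, 13.1, 101.7 and 37.0 FPKM in diabetic and 90.6, 151.4, 10.1 and 5.17 in euglycemic libraries (0.52, unadjusted p = 0.64 with limma), and WT libraries ranged from 14.0 to 232.5. Of 16 ChREBP targets tested 1 was called higher (*Fasn*), a share of 6.25% near the 6.78% of all genes. *Aqp11*, an aquaporin of intracellular membranes, was at 2.24 to 3.41 FPKM in diabetic and 2.99 to 5.36 in euglycemic libraries (−0.46, unadjusted p = 0.053 with limma), and it was called lower after length-centring (−0.75, unadjusted p = 0.011 with limma) and without euglycemic replicate 4 (−0.59). The 9 other genes named by a fixed list had log2 differences from −0.57 to 0.38, and none was called in either way. *Lyz2* (called higher, 2.11) and *C1qa*, markers of macrophages, were at 0 to 59.4 and 74.3 to 196.0 FPKM in diabetic libraries, against 0 to 3.07 and 53.8 to 123.9 in euglycemic libraries. The call of *Lyz2* was lost in 16 of 26 alternative analyses, and its difference was 1.05 without diabetic replicate 1. The median of the 11 macrophage markers tested was 0.36, and −0.13 without that library. *C1qa* was called higher after length-centring (0.79, against 0.44 before).

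Promoters were searched for motifs of factors known to act on these lists, in windows of 300 bases, from 250 before to 50 after the start site (RefSeq, GRCm38.p6, both strands, 27025 genes). For the called respiratory chain genes, 38 of 47 had a window, and 4 of these (*Atp5k*, *Cox6a1*, *Ndufa11* and *Uqcrc1*) held the palindromic element of nuclear respiratory factor 1, the 10 bases in capitals in the *Uqcrc1* window shown here, which 2.44% of the tested genes' windows hold. For the interferon list, 5 of 6 had a window, and *B2m* and *Bst2* held the core of the interferon-stimulated element, GAAA followed by any 2 bases and GAAA again (3.35% of the tested genes). For the cholesterol list 4 of 7 had a window, of which *Hmgcs1* held the sterol element TCACNCCAC (1.39%) and *Dhcr7* the E-box CACGTG (12.2%). For the clock list, 1 of 2 called genes had a window, and 0 held that E-box. A match is a run of letters and not evidence that a factor binds, and no match says only that these letters are not in the window. The windows of 3 genes whose levels are given above are shown 5′ to 3′ on the strand of the gene, with the motif in capitals. They lie at chr8:71537423-71537722 (*Bst2*, minus strand, 2 overlapping matches), chr7:143823149-143823448 (*Dhcr7*, plus strand) and chr9:108936398-108936697 (*Uqcrc1*, plus strand).
Bst2: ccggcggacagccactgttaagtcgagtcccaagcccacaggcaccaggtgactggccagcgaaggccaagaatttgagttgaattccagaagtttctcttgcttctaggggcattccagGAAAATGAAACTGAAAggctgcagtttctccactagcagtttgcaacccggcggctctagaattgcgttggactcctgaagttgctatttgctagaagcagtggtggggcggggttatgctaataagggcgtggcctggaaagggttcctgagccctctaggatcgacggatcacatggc
Dhcr7: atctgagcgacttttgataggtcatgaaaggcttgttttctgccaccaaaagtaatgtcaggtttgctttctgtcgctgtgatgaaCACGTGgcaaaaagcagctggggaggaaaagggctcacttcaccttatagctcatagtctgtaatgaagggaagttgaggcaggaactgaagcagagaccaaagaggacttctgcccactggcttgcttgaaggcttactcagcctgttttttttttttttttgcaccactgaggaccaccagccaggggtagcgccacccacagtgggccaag
Uqcrc1: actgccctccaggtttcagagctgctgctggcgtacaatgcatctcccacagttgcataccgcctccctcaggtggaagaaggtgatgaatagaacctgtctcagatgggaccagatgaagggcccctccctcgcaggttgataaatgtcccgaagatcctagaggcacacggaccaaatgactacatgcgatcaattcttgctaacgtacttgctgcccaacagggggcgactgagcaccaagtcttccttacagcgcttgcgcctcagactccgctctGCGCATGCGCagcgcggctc

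WT libraries were then placed between the groups as a description. They entered the fit, and so its error and its filter, but not the difference itself. Over all genes tested the WT mean lay nearer to the euglycemic than to the diabetic mean in 46.4% of genes. Among genes called higher in diabetic libraries it did so in 44.95%, and among genes called lower in 43.6%. The WT libraries differed from each other in this. WT replicate 1 alone lay nearer to the euglycemic mean in 84.3% and 85.3% of the called genes (67.4% of all), and the mean of WT replicates 2 and 3 in 25.2% and 24.3% (35.9% of all). Beside these shares, *Cebpd*, *Car15*, *Ffar1*, *Eif2ak3* and *Dnajb9* are genes, chosen after their values were seen, in which all 3 WT libraries lay outside the range of the diabetic libraries, toward or beyond the euglycemic side.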

How the data were processed

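Sorted GFP+ β-cells of 8 mutant and 3 WT libraries were profiled by poly(A) RNA-seq. The authors deposited FPKM values per gene. The study's methods name Tophat, Cufflinks and the mm10 genome, whereas the submitters' processing notes list HISAT2 2.0.4, StringTie 1.3.0 and edgeR, so the aligner is uncertain. FPKM are relative to each library's total, and a change in a few very abundant mRNAs, such as insulin, changes all others. Depth was inferred from the FPKM steps of single-exon genes, of which 92.7 to 97.2% were whole fragments (tolerance 0.02), and limits the precision of genes near 1 FPKM.

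Of 34728 gene symbols, 11251 that reached 1 FPKM in 3 or more of the 11 libraries were tested on log2(FPKM + 1) with limma 3.58.1 (trend, R 4.3.3) in a fit of all 3 groups, with Benjamini-Hochberg adjustment. Genes too low for that fit (*Rptor*, *Pecam1* and *Eng*) were tested with the two-sided exact permutation test, and other p values are limma's. Genes named were mainly those passing the adjusted criterion and the 12 largest differences in each direction among genes with p of at most 0.01 and no overlap. To these came genes from the up to 4 tested members of smallest p per list, called or not, and a fixed set. Genes and lists were chosen with earlier results of these data known, and length-centring after the data were seen. Length-centring subtracts a lowess curve on log transcript length from each library. Other scalings, filters, pseudocounts, library weights, the replicate block and leaving out each library were tried as alternatives. The procedure was also run on simulated data, and the outcome is not reported here. Some genes of the lists are counted but not reported here by name. Replicate numbers were not used as pairs in the main fit. Deviations of same-numbered mutant libraries had correlations from −0.351 to 0.212. These cannot tell whether such libraries shared a litter or batch, which the labels do not give.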

Additional observations from a re-analysis of the deposited data

Results flagged for a closer look

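In groups of 4 libraries, 1 library stood apart from the other 3 by Dixon's 95% criterion in 15 of 242 sets of 1 gene in 1 group and in 5 of 84 sets of 1 gene list in 1 group. Chance gives about 1 in 20.

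Euglycemic replicate 4 stood apart in 8 of these. It had 0.0 FPKM of *4732496C06Rik* (others at least 0.905) and 0.0 of *Sparc* (others at least 0.472). *Dnajb9* was at 298.0 FPKM there (others 169.2 to 184.7), *Sst* at 4774 (others at least 11827) and *Lyz2* at 3.07 (others at most 0.160). Its mean log2(FPKM + 1) was 2.88 for hypoxia and HIF targets, 5.37 for complex I and 4.23 for translation genes, below the others in each case. *Vgf* was at 3.70 FPKM in euglycemic replicate 1.

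Diabetic replicate 1 was high in *Thbs1* (15.8 FPKM) and *Pecam1* (1.35), and low in *Cox4i1* (32.3) and the V-ATPase subunit *Atp6v0e* (33.2). Diabetic replicate 2 had a mean log2 level of 15.99 for insulin and amylin genes, above the others, and *Sdf2l1*, an endoplasmic reticulum chaperone partner, at 500.01 FPKM (others at least 638.4). Diabetic replicate 3 was high in *C1qa* (196.0 FPKM), *Mdrl* (0.993) and the non-β islet hormones (mean log2 level 8.01) and low in *Maff* (18.6). In diabetic replicate 4 *Atg2a* was at 1.55 FPKM (others at least 3.45).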

How the results depend on the processing

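The 97 called genes named in the text kept their direction in each of the 27 alternatives in which they were tested, of which 5 were chosen after the data were seen, and 37 of them stayed called in all of these. After length-centring 53 of the 97 stayed called, 36 lost the call when 1 library or another was left out, and 5 (*Aldh1a3*, *Lyz2*, *Idi1*, *Xaf1* and *mt-Co3*) lost it in most alternatives. The number of genes passing the adjusted criterion, 1 as reported, was the least stable value. It was 0 with TPM, with median of ratios scaling, with a pseudocount of 0.1, without a filter and with a filter of 5 FPKM, 6 with only the 8 mutant libraries and 1212 with library weights. Leaving out 1 library gave 0 to 378, the highest without WT replicate 1 and 4 without euglycemic replicate 4. The cause was not tested.

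The counts of 763 higher and 592 lower genes became 1379 and 349 with TPM, and 398 were higher with the filter of 5 FPKM. Length-centring gave 0 genes passing the adjusted criterion, 454 higher and 275 lower, 0 passing with the median transcript length, 5, 453 and 269 with only the mutant libraries, and 499 and 308 without euglycemic replicate 4. Leaving out 1 library gave 561 to 926 higher and 426 to 861 lower genes.

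The replicate block gave 0 passing genes, 771 higher and 567 lower, and with length-centring 0, 437 and 269. Whether the numbers pair libraries is not given in the labels.

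Of 21 genes not called, 4 reversed. Leaving out 1 library gave −1.01 to 0.24 for *Dusp1* and −1.29 to 0.44 for *Fos* (both highest without euglycemic replicate 1), −0.0039 to 0.29 for *Ins1* (lowest without diabetic replicate 2) and −0.26 to 1.28 for *Txnip* (lowest without euglycemic replicate 4). *Txnip* was at −0.18 without that library after length-centring and at −0.11 with library weights. Of 42 gene lists, 18 had a median that changed sign in at least 1 alternative. The median of insulin signalling genes became −0.033 with length-centring without euglycemic replicate 4, and those of the immediate early and endoplasmic reticulum lists −0.015 and −0.028 without that library. Each group holds 3 or 4 libraries, and depth limits genes near 1 FPKM.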
